A study of Mus musculus with 9 samples.

Results

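The genes described here encode the proteins of the cytosolic ribosome. They were chosen by name: protein-coding genes of the count table whose mouse symbol begins with Rpl or Rps and a digit, or with Rplp or Rpsa, leaving out the Rps6k kinases and names marked "-ps". The rule found 86 of the 47729 genes, 52 with large-subunit names and 34 with small-subunit names. Rps19bp1 and Rpl7l1 match the rule without being standard ribosomal proteins: the first is a binding partner of Rps19, and the second a relative of Rpl7 whose place in the ribosome is less certain. Ribosomal proteins that carry other names, such as Fau and Rack1, were followed as a separate list.

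RNA came from C2C12 cells, an established mouse myoblast line that stops dividing and fuses into myotubes when growth serum is replaced by horse serum. The samples came from 3 populations. WT received a non-target sgRNA with CRISPR-Cas9, Per1KO was knocked out for Per1 and Per2KO for Per2, both genes of the circadian clock. Each gave 1 library on day 0 in DMEM with 10% FBS and 1 each on days 3 and 5 in DMEM with 5% horse serum, so that 9 libraries of poly(A) RNA hold 1 sample per population and day. The labels name whole muscle as tissue although the protocol describes cultured cells, and they do not say whether a population is 1 clone.

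Each ribosome carries 1 copy of almost every ribosomal protein beside its ribosomal RNAs, and growing cells spend much of their transcription and translation on making them. The large subunit joins amino acids into protein, and the small subunit reads the mRNA. Most of these mRNAs begin with a C followed by a run of pyrimidines, the 5′ terminal oligopyrimidine (TOP) motif, through which the kinase mTOR and the binding protein Larp1 set their translation. Nearly every ribosomal protein gene has also left many processed pseudogenes, which are intronless copies of its mRNA elsewhere in the genome, so that a short read can match the gene and a copy equally well.

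The clearest such case in these data is Rps27, a zinc-binding protein of the small subunit, and its coding sequence is shown because the split of its counts goes with the largest differences from WT below. Rps27 lies on the minus strand at chr3:90212522-90213651 (GRCm38, GENCODE release 21 of the M series) and is spliced. The single-exon gene Rps27rt lies on the minus strand at chr9:114982366-114982739, and its 255-base coding sequence differs from that of Rps27 at 0 bases, so the first sequence stands for both genes. The paralog Rps27l, on the plus strand at chr9:66946086-66949516, differs at 61 bases, which are in capitals, and its longest run identical to Rps27 is 11 bases.
Rps27: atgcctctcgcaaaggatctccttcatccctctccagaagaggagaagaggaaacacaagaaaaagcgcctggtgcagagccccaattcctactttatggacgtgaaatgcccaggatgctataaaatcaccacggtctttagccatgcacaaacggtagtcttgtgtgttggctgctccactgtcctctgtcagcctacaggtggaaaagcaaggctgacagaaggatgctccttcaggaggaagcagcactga
Rps27l: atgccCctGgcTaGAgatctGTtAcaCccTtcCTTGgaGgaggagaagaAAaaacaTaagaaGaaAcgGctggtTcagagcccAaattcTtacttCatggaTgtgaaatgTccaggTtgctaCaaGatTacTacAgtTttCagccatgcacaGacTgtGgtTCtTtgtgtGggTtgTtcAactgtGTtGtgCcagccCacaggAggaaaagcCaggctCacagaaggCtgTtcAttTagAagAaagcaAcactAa

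The start sites of 4 members show the TOP run, in capitals, around the first base of the RefSeq transcript (GRCm38.p6). The windows are 30 bases long and begin 12 bases before that start. They lie at chr3:90213631-90213660 on the minus strand for Rps27, chr4:86857350-86857379 on the minus strand for Rps6, chr7:45128728-45128757 on the minus strand for Rpl13a, and chr9:114982722-114982751 on the minus strand for the retrocopy Rps27rt.
Rps27: tccgctttcgCTCCTTTCCggcggtgacga
Rps6: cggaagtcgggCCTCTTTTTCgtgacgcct
Rpl13a: accctgcgacaagaCCTCCTCCTTTCCCag
Rps27rt: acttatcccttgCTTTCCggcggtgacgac
RefSeq start windows of 250 bases before and 50 after the start matched 66 of the 86 genes, with 78 starts in all. A start at C followed by 4 pyrimidines stood at 14 of these 78 starts, or 17.9%, and at 2.51% of all 32851 starts in the same table. A run of at least 8 pyrimidines that begins with C within 10 bases of the start was found at 24 of the 78, or 30.8%, against 8.11% of all starts. The letters CCGGAAG, the core bound by ETS factors, were present on either strand in 34.6% of the member windows and 8.86% of all windows. AAGATGG, the core bound by YY1, was in 15.4% against 6.34%, and the TATA box letters TATAAA were in 8.97% against 13.6%. These are matches of letters in the windows, which overlap where a gene has several starts, and not measured binding sites.

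The WT libraries held 5020385 to 6773320 counts each and the knockout libraries 41997763 to 48051824, so the smallest knockout library held 6.20 times the counts of the largest WT library. The WT titles alone carry a lane suffix. Knockout and WT libraries therefore differ in depth and lane label as well as in genotype, and these cannot be told apart. Levels are given as CPM, the count relative to a library size that edgeR adjusted with its TMM factor, and 3 counts correspond to 0.423 to 0.659 CPM in WT and 0.0590 to 0.0730 CPM in the knockouts. Per1 was measured at 30.96 to 35.5 CPM in WT, 20.8 to 32.4 CPM in Per1KO and 16.4 to 32.9 CPM in Per2KO. Per2 was at 9.73 to 20.4 CPM in WT, 6.58 to 10.6 CPM in Per1KO and 3.50 to 9.11 CPM in Per2KO. For Per2 the WT and Per2KO ranges do not overlap, but the Per1KO range overlaps both. A gene edit need not lower its mRNA, so these levels do not test the knockouts. The 4 myoblast markers summed to at least 1746 CPM in every library. The 6 myotube markers went from 625 to 18286 CPM between days 0 and 5 in WT, from 33.5 to 11414 in Per1KO and from 15.7 to 8837 in Per2KO, and the 4 proliferation markers summed to less on day 5 than on day 0 in all 3 populations. The sums for adipocyte, osteoblast, macrophage and endothelial markers, 15 genes of which 4 were at 0 in all libraries, reached at most 2.85 CPM.

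Ribosomal protein genes took a smaller share of the mRNA counts as the cells differentiated, and by day 3 it was already far lower in the knockout libraries but not in WT. In WT their share was 2.11% (95% Clopper-Pearson interval 2.098 to 2.12) on day 0, 2.05% on day 3 and 1.48% on day 5. Per1KO libraries gave 1.74%, 1.13% and 0.935% on the same days, and Per2KO libraries gave 1.82%, 1.10% and 0.956%. Relative to its own day 0, the share stood at 0.971 on day 3 and 0.701 on day 5 in WT, at 0.653 and 0.539 in Per1KO, and at 0.603 and 0.525 in Per2KO. The intervals of these shares do not overlap between any days of a population, but they cover counting error only: each library is a single sample, and without molecular identifiers reads can repeat 1 molecule. In bulk RNA, fewer cells of a kind and less of an mRNA per cell cannot be told apart.

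Annotated pseudogenes that share at least 50% of the 31-base words of the shorter transcript with a member numbered 216, for 63 of the members. They took 0.115% to 0.151% of the counts in WT and 0.313% to 0.563% in the knockouts, so every knockout library was above every WT library. With these pseudogenes added, the day 0 shares were 2.26% in WT, 2.25% in Per1KO and 2.38% in Per2KO, and the day 5 shares were 1.59%, 1.25% and 1.27%. The day 0 difference between WT and Per1KO of the genes alone, 2.11% against 1.74%, thus came to 2.26% against 2.25% with the pseudogenes counted in.

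**Figure D1:**
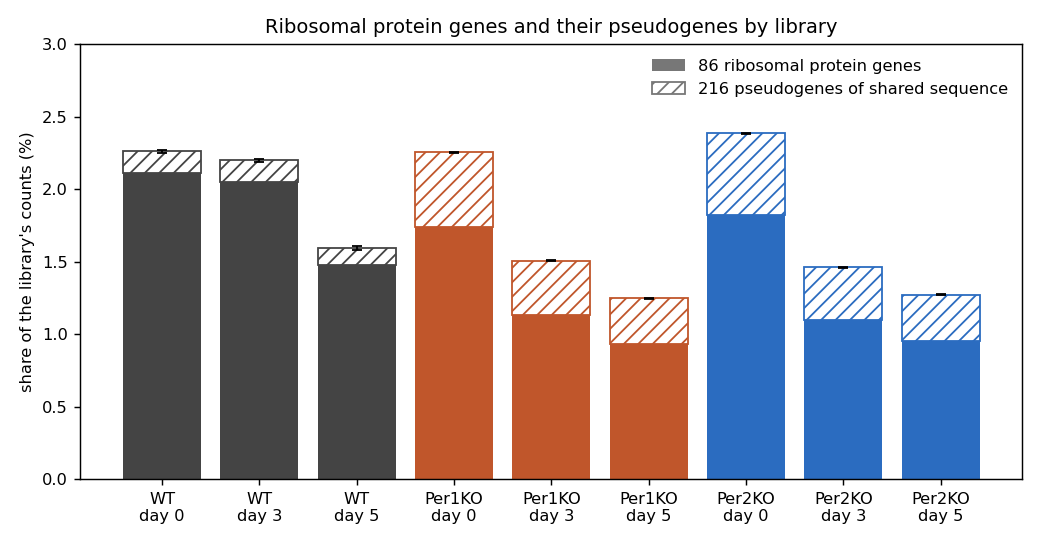
Share of each library's counts, in percent, taken by the 86 ribosomal protein genes (filled) and by 216 pseudogenes that share their sequence (hatched), for 9 libraries; error bars are 95% Clopper-Pearson intervals of the sum. The filled part falls from day 0 to day 5 in all 3 populations, to 1.48% in WT, 0.935% in Per1KO and 0.956% in Per2KO, and the hatched part is taller in every knockout library than in any WT library.

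In a fit over the 3 populations together, most of these mRNAs were lower on day 5 than on day 0 by a similar, modest amount. The median fall was smaller in WT than in either knockout population, as the differences between single libraries below show. Of the 83 members that passed the expression filter (at least 1 CPM in at least 3 libraries), 53 were lower on day 5 than on day 0 at an adjusted p under 0.05 and 0 were higher, where 22.9% of all 13324 genes tested were lower and 46.1% changed in either direction. The median member log2 fold change was -0.65, against -0.01 over all genes tested, and 82 of 83 estimates were negative. All 3 day 5 libraries lay below all 3 day 0 libraries for 24 of the 83 members, or 28.9%, and above them for 0. Of all tested genes, 22.6% and 23.9% were so separated. The fold changes of the members had an SD of 0.33 on the log2 scale, against 1.36 for all genes tested. Large- and small-subunit names gave the same median of -0.65, with 29 of 49 and 24 of 34 called lower. The called members ran from -0.44 (Rps21 and Rpl37) to -1.90 (Rpl28), and those that did not pass from 0.00 (Rpl15) to -1.12 (Rps18). These tests used edgeR's quasi-likelihood model with genotype and day as terms, in which the 3 populations stand in for replicates of a day, and p-values measure only the spread between these libraries. With a knockout library of day 0 or day 5 left out, the count fell to 16 (Per1KO day 0), 17 (Per1KO day 5), 24 (Per2KO day 0) or 19 (Per2KO day 5). The shares of all tested genes called in those fits are not given here.

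**Figure D2:**
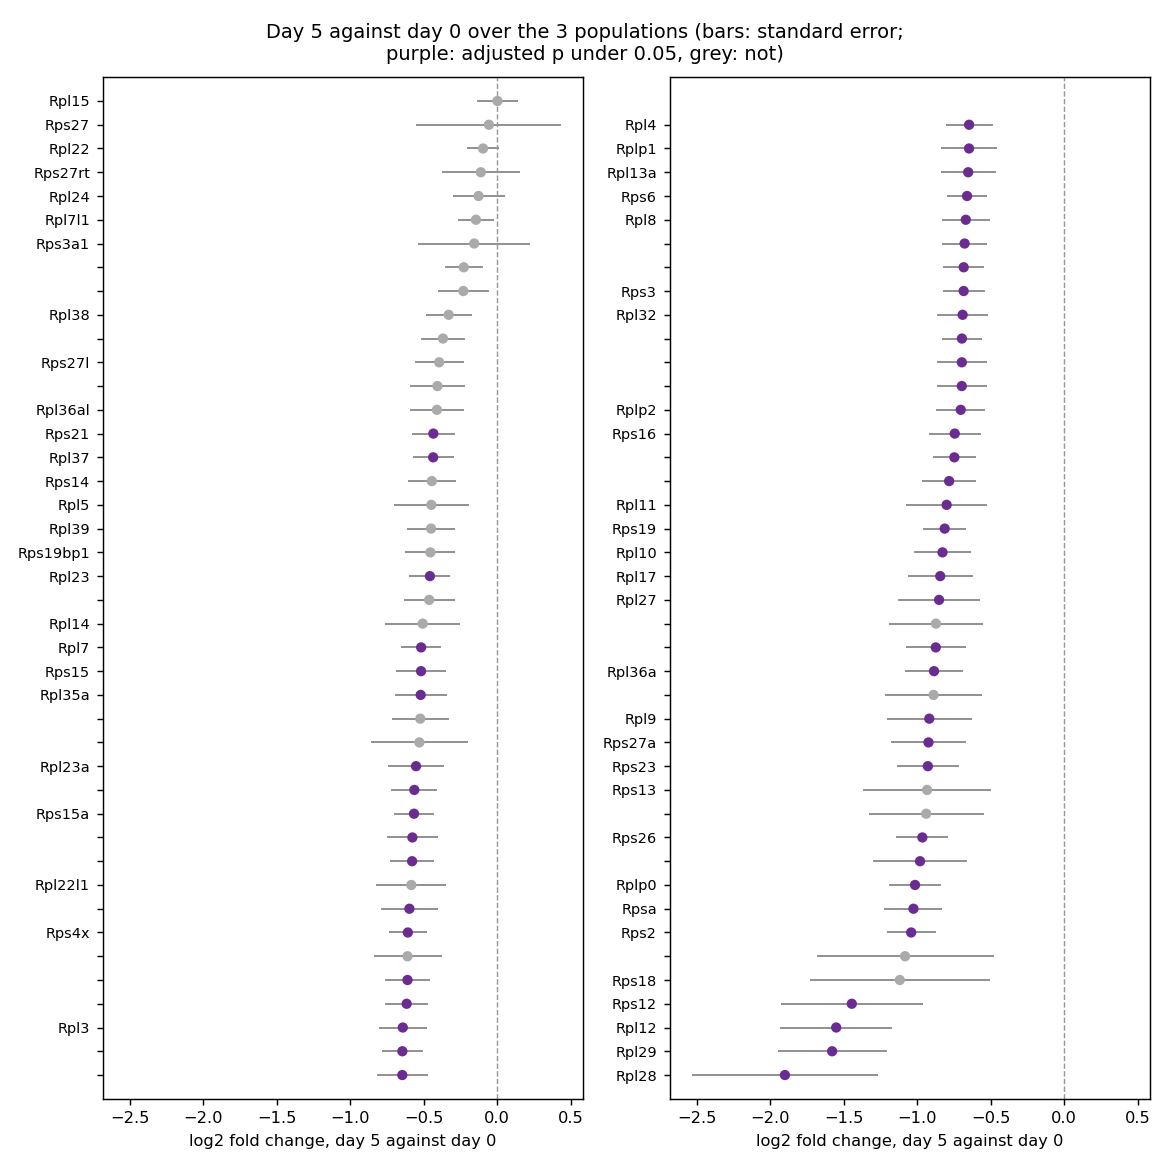
Log2 fold change on day 5 against day 0 for each of the 83 tested ribosomal protein genes, in order of size, with standard errors as bars and labels for genes named in the text; purple points have an adjusted p under 0.05. Most lie near the median of -0.65, Rpl15 and Rps27 lie at 0.00 and -0.06, and Rpl28 lies lowest at -1.90.

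The stalk of the large subunit, which recruits the elongation factors, held some of the best-counted members. Rplp0, the stalk's base protein (chr5:115559467-115563727, plus strand), stood at 1200, 1075 and 734 CPM on days 0, 3 and 5 in WT. Its levels were 1205, 670 and 553 CPM in Per1KO and 1253, 604 and 557 CPM in Per2KO. The 3 day 5 libraries were all below the 3 day 0 libraries, and the log2 fold change was -1.01 (SE 0.18, adjusted p = 0.00263). The acidic partners Rplp1 and Rplp2 fell by 0.65 and 0.70 on the log2 scale. Rpl12, which sits at the foot of the stalk (chr2:32961559-32965345, plus strand), had 319, 281 and 223 CPM in WT, 131, 38.2 and 48.6 CPM in Per1KO, and 139, 31.9 and 24.8 CPM in Per2KO. Its fitted change of -1.55 (SE 0.38, adjusted p = 0.0128) averages a small decline in WT and a steep one in both knockouts, whose day 3 and day 5 values lie far below every WT value.

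Among the other large-subunit members, Rpl28 had the largest fitted fall and also one of the widest errors, -1.90 (SE 0.64, adjusted p = 0.042). Its levels were 179, 166 and 135 CPM in WT, 15.7, 15.5 and 3.79 CPM in Per1KO, and 33.9, 4.28 and 4.16 CPM in Per2KO. The 2 knockout populations thus reached their low level on different days. Rpl29 fell by 1.58 (SE 0.37, adjusted p = 0.00992), but its level was at most 2.45 CPM in any library and near the value of 3 counts in WT. Rpl3, a core protein near the site of peptide bond formation, fell by 0.64, and Rpl10, which joins the subunit late in its assembly, fell by 0.83. Rpl36a fell by 0.89 and Rpl7 by 0.52. Rpl13a, which also serves in a regulatory complex outside the ribosome, fell by 0.65, while Rpl38 was at -0.33 and did not pass the test. Rpl11 and Rpl5, which bind the 5S ribosomal RNA and, when free, the p53 regulator Mdm2, gave -0.80, which was called, and -0.45, which was not. Rpl15 had the fitted day 5 change nearest 0, with 65.9 to 103 CPM in WT and 73.1 to 82.3 CPM in the knockouts. Rpl4 and Rpl8 had the highest CPM of the large-subunit members in all 9 libraries, and each led in some of them. Rpl4 had 1318, 1226 and 1087 CPM in WT and 1306, 841 and 783 CPM in Per1KO, and it fell by 0.65 (SE 0.16, adjusted p = 0.0123).

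In the small subunit, Rpsa, which is also known as a laminin receptor (chr9:120127689-120132369, plus strand), had 248, 241 and 171 CPM in WT, 79.6, 41.7 and 29.8 CPM in Per1KO, and 73.3, 37.8 and 35.1 CPM in Per2KO. Its log2 fold change was -1.03 (SE 0.20, adjusted p = 0.00405). Rps2 fell by 1.04 (adjusted p = 0.00169) and Rps12 by 1.45 (adjusted p = 0.0418). Rps6, the target of the S6 kinases, fell by 0.66, and Rps4x, the X-linked member of a pair whose other gene is Y-linked in humans, fell by 0.61. Rps19, the gene most often mutated in Diamond-Blackfan anemia, had 193, 221 and 127 CPM in WT and fell to 74.0 and 74.6 CPM on day 5 in Per1KO and Per2KO, a log2 fold change of -0.81. Rps27a, made as a fusion with ubiquitin, fell by 0.92. Rps18 was at -1.12 with an SE of 0.61 and did not pass, since its knockout values jumped between 7.86 and 78.5 CPM from library to library.

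Only 5 tested members had under 10% of the 31-base words of their principal mRNA (the coding transcript of best APPRIS rank) in common with another gene, a measure added after seeing the data, among them Rpl8, Rps15a, Rps19bp1 and Rps3. Their median day 5 change was -0.61, and 4 of the 5 were called lower. A long principal mRNA also lowers this percentage, as described for Rps15a below. By the longest transcript, which often holds intron sequence, 9 were under 10%, with a median of -0.57 and 6 called lower. Of those 9, however, Rpl35a, Rps14, Rps19 and Rpl22 share 59.4%, 50.1%, 47.3% and 44.8% of their mRNA. Rps3, at the mRNA entry site (chr7:99477896-99483738, minus strand), had 633, 598 and 472 CPM in WT, 697, 531 and 423 CPM in Per1KO, and 779, 485 and 421 CPM in Per2KO. The day 5 libraries were all below the day 0 libraries, and it fell by 0.68 (SE 0.14, adjusted p = 0.00578). Rpl22 did not pass, at -0.10 (SE 0.11), with 208 to 274 CPM in all 9 libraries.

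Several members belong to pairs in which 1 partner is known from particular tissues. Rpl3l, the striated muscle partner of Rpl3 with 0% shared words, was not tested because it was below the filter. It had 0, 2 and 1 counts in WT, 2, 5 and 15 counts in Per1KO, and 4, 9 and 12 counts in Per2KO on days 0, 3 and 5. The day 5 counts exceeded the day 0 counts in all 3 populations, at levels of at most 0.364 CPM. Fitted by edgeR with no expression filter, Rpl3l was higher on day 5 than on day 0 by 2.45 (SE 0.71, adjusted p = 0.020). It was the single member called higher in a day comparison of that fit. The call rests on at most 15 counts in any library, and the share of all genes called in that fit is not given here. Rpl3 itself stood at 41.1 to 282 CPM. Rpl10l and Rpl39l, the testis partners of Rpl10 and Rpl39, had 0 counts in all 9 libraries, which allows up to 0.659 CPM in the shallowest WT library and 0.0730 CPM in the shallowest knockout library.

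Rpl22l1, the partner of Rpl22, had 65.7, 103 and 68.9 CPM in WT, 86.01, 57.9 and 50.8 CPM in Per1KO, and 96.5, 61.7 and 51.1 CPM in Per2KO, so its highest library was day 3 in WT and day 0 in each knockout. Over the 3 populations its day 5 change was -0.59, which did not pass. Rpl36al, the intronless partner of Rpl36a, was at -0.41 and Rps27l, the partner of Rps27 that p53 is known to induce, at -0.40, and neither passed. Rpl39 was at -0.45, Rpl7l1 at -0.15 and Rps19bp1 at -0.46, and these did not pass either.

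The early step, day 3 against day 0, gave a smaller change. Over all libraries 12 members were lower and 0 higher, where 16.9% of all tested genes were lower, 18.1% higher and 35% called in either direction, and the median member change was -0.33. Rpl12 fell by 1.43 (SE 0.38, adjusted p = 0.0243), Rps2 by 0.86, Rps23 by 0.83, Rps6 by 0.76 and Rplp0 by 0.69. The knockout libraries alone gave 69 members called lower on day 3 and 71 on day 5. Of all tested genes, 57.7% and 64.4% were called in either direction there. The shares called lower alone are not given here. In that fit the median member change was -0.57 on day 3 and -0.81 on day 5. All 12 and all 53 members called over the 9 libraries were among these. The day 3 count was 58 with the WT day 0 library left out and 36 with WT day 3 left out. It was between 1 and 5 with any 1 knockout library left out, namely 1 without Per1KO day 0, Per1KO day 3 or Per2KO day 3, 2 without Per2KO day 0, and 5 without Per1KO day 5 or Per2KO day 5.

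Differences between single libraries, taken on the log2 CPM scale after adding a prior count of 2, carry no test and show the course in each population. From day 0 to day 3 the median member difference was 0.16 in WT, with 20 of 83 members lower, -0.55 in Per1KO with 77 lower, and -0.63 in Per2KO with 79 lower. From day 3 to day 5 the median was -0.42 in WT with 82 of 83 lower, -0.19 in Per1KO with 70 lower, and -0.14 in Per2KO with 71 lower. Over the whole interval the median was -0.25 in WT, -0.78 in Per1KO and -0.78 in Per2KO. From day 0 to day 5, 69 of the 83 members were lower in all 3 populations, and 0 were higher in all 3. The median of all tested genes lay between -0.0052 and 0.0022 in every population and interval. The shares of all tested genes that were lower are not given here for these differences. The WT decline thus fell between days 3 and 5, and most of the knockout decline between days 0 and 3. Day 5 against day 3 in the fit over all libraries called 0 members, where 1.79% of all tested genes were called. The member median was -0.26, and 10 members had an unadjusted p under 0.05. The share of all tested genes at that unadjusted threshold is not given here. The DESeq2 Wald test called 1 member. The knockout libraries alone called 4, where 10.5% of all genes were called: Rps16, Rps19, Rps26 and Rps4x, lower by 0.31 to 0.47.

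**Figure D3:**
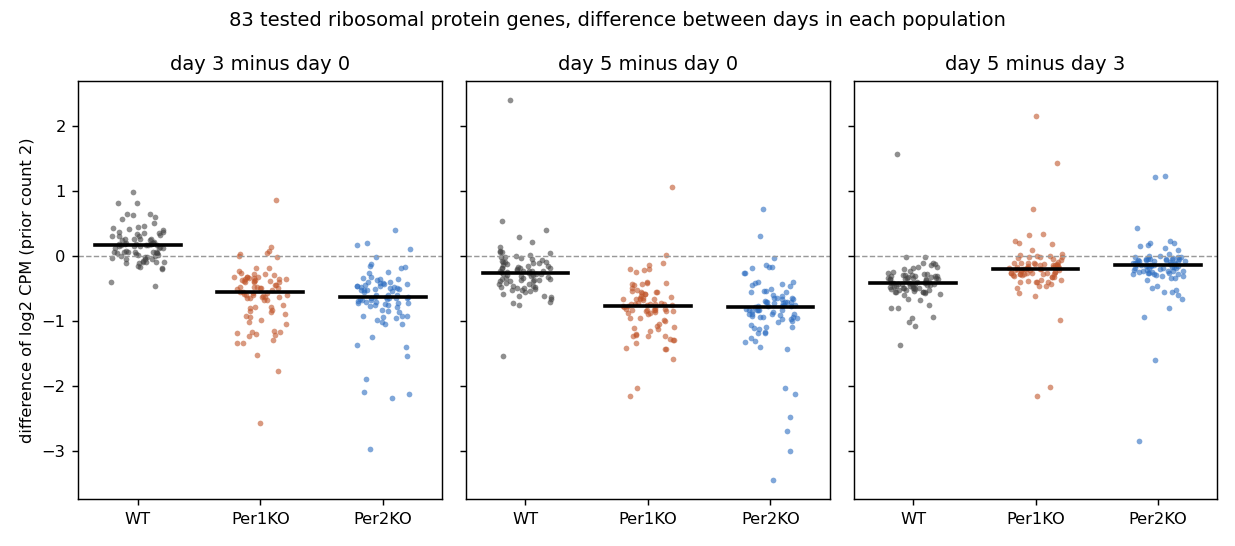
Difference of log2 CPM between 2 days within each population for the 83 tested ribosomal protein genes, 1 point per gene, with the median as a bar. From day 0 to day 3 the WT points centre above 0, at 0.16, and the knockout points below, at -0.55 and -0.63, while from day 3 to day 5 the WT median is the lowest of the 3 at -0.42.

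A term for differentiated libraries (days 3 and 5) of either knockout tested whether the response to differentiation differed from that of WT. This interaction estimate was negative, meaning a deeper fall in the knockouts, for 82 of 83 members with a median of -0.66, against 0.01 over all genes tested. At an adjusted p under 0.05, 5 members were called, all lower, where 1.45% of all tested genes were called lower and 4.95% in either direction. An unadjusted p under 0.05 was found for 49 members, and the share of all tested genes at that threshold is not given here. The 5 were Rpl27 and Rpl9 at -1.27, Rpl14 at -1.20, Rps27a at -1.11 and Rpl22l1 at -1.09. Rpl14, of the large subunit (chr9:120571444-120574654, plus strand), had 231, 350 and 284 CPM in WT but 155, 88.6 and 78.5 CPM in Per1KO and 111, 79.4 and 68.4 CPM in Per2KO. Its WT level was higher on days 3 and 5 than on day 0, and the reverse held in both knockouts. The interaction rests on 3 WT libraries: 43 members were called without WT day 5 and 11 without WT day 3, and 0 to 3 without any 1 knockout library, with 0 when the day 0 library of either knockout was left out. The DESeq2 Wald test called 31 members. The shares of all tested genes called in these alternative fits are not given here. Their counts therefore show only how the calls depend on library and test.

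Most genes of ribosome biogenesis were also lower on days 3 and 5 than on day 0. Of 32 ribosome biogenesis genes, 21 were lower on day 3 and 23 on day 5, and 0 were higher, with medians of -0.67 and -0.71, where 16.9% and 22.9% of all tested genes were lower. Gar1, of the box H/ACA particles that modify ribosomal RNA, had the largest called fall on day 5, at -1.41 (SE 0.19, adjusted p = 0.000702), and Nop56, of the box C/D particles, on day 3, at -1.16 (SE 0.29, adjusted p = 0.0191). Nop56 went from 69.4 to 58.8 and 56.2 CPM in WT, and from 186 to 66.1 and 52.7 CPM in Per1KO. Of these genes 8 were lower in the interaction, with a median of -0.79, where 1.45% of all tested genes were lower, and the largest was the pseudouridine synthase Dkc1 at -1.47. Of 15 genes of RNA polymerase I and its factors, 4 were lower on day 3 and 4 on day 5, where 16.9% and 22.9% of all tested genes were lower, among them the subunit Polr1c at -0.69 and -0.96, with 0 higher, and Taf1d was lowest on day 5 at -0.99. The polymerase I factor Cd3eap was lower in the interaction at -1.34.

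On day 5, 23.2% of all tested genes were higher and 22.9% lower than on day 0, and the counts of 3 other lists are read against these shares. Of 16 other translation mRNAs known for TOP starts, 2 were higher and 5 lower. The helicase Eif4a2 was higher by 1.38 (SE 0.15, adjusted p = 0.000242) and Hnrnpa1 lower, at -1.75 (SE 0.19, adjusted p = 0.000241). The median of the 16 was -0.34, closer to 0 than the -0.65 of the ribosomal protein genes. Among the ribosomal proteins with other names, Rack1 was called lower at -0.60. Of 10 assembly and export genes, 2 were higher and 3 lower on day 5, with the assembly chaperone Grwd1 at -0.85 and the factor Sbds at 0.79. Of 16 tested genes of mTOR signalling, Larp1 and Myc, 6 were higher and 2 lower on day 5. Those higher included the mTOR inhibitor Deptor at 0.85 and the mTOR partner Rptor at 0.81, and those lower were the mTOR inhibitor Ddit4 at -1.34 and the growth regulator Myc at -1.25. Myc had 62.7, 32.2 and 69.4 CPM in WT, so its WT level on day 5 was not below day 0, whereas Per2KO had 159, 28.0 and 29.5 CPM.

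Against WT, ribosomal protein genes differed in the knockouts in both directions, with a median difference near that of day 5 against day 0 and a much wider spread. In Per1KO 42 members were lower and 8 higher, where 10.1% of all tested genes were lower, 9.26% higher and 19.3% called in all. In Per2KO 41 were lower and 8 higher, where 10.6% were lower, 9.31% higher and 19.9% called in all. Both comparisons use the same 3 WT libraries, so they are not independent of each other, and the days take the place of replicates. The member medians were -0.68 and -0.62, against -0.02 and -0.01 over all genes, and the SDs of the members' fold changes were 2.05 and 2.08, against 1.10 and 1.09. The 5 members with under 10% of their mRNA shared had medians of -0.26 and -0.28. All 6 knockout libraries lay below all 3 WT libraries for 36 of the 83 members and above them for 8, where 8.11% and 9.83% of all tested genes were so separated. By day, the median difference was -0.20 in Per1KO and -0.14 in Per2KO on day 0, and between -0.76 and -0.95 on days 3 and 5.

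Rps27 and Rps27rt, the pair with the same coding sequence shown above, lay at opposite ends of this list. Rps27 had 161, 230 and 163 CPM in WT on days 0, 3 and 5, 2.53, 1.94 and 5.37 CPM in Per1KO, and 4.36, 1.47 and 1.70 CPM in Per2KO, a log2 fold change of -5.90 (SE 0.56, adjusted p = 0.000483) in Per1KO and -6.28 (SE 0.57, adjusted p = 0.0004) in Per2KO. Rps27rt had 2, 3 and 8 counts in WT, or 0.282 (95% Clopper-Pearson interval 0.0342 to 1.02), 0.546 and 1.76 CPM. In Per1KO it had 43.5, 44.6 and 36.6 CPM and in Per2KO 49.4, 43.5 and 41.0 CPM, for log2 fold changes of 5.75 and 5.85. Rps27rt thus held 0.174% to 1.06% of the counts of the pair in WT and 87.2% to 96.7% in the knockouts. Added together, the pair had 162 to 231 CPM in WT and 41.9 to 53.7 CPM in the knockouts, so the sum was lower in every knockout library but by much less than Rps27 alone. On sequence, 98.7% of the 31-base words of the Rps27 mRNA also occur in another gene's transcript, so neither value can be assigned to its gene with certainty. Rps27l, whose coding sequence differs at many bases and whose mRNA shares 29.6% of its words, had 58.8 to 74.1 CPM in WT and 80.5 to 119 CPM in the knockouts, and at 0.56 and 0.52 it did not pass.

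**Figure D4:**
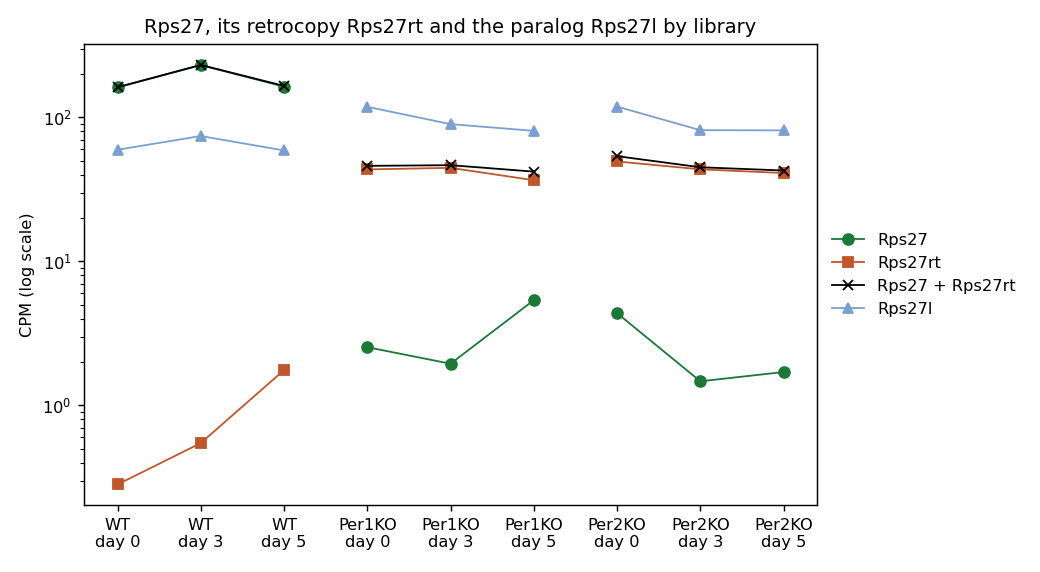
CPM on a log scale for Rps27, Rps27rt, their sum and Rps27l in the 9 libraries, with lines joining the 3 days of a population. Rps27 lies at 161 CPM or more in WT and at 5.37 CPM or less in the knockouts, Rps27rt lies at 36.6 CPM or more in the knockouts, and Rps27l stays between 58.8 and 119 CPM.

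Other members with large differences also shared most of their sequence with copies. Rpl23a, at the exit of the nascent peptide tunnel (chr11:78180932-78183584, minus strand), had 2, 3 and 2 counts in WT, or 0.282 to 0.546 CPM, and 11.3 to 18.6 CPM in the knockouts, with log2 fold changes of 5.00 and 5.13. Rpl24, which helps bridge the subunits (chr16:55966275-55971435, plus strand), had 0.659 to 1.46 CPM in WT and 26.0 to 31.8 CPM in the knockouts, with 4.90 and 4.98. Their mRNAs share 83.2% and 82.2% of their words with other transcripts. Rps23 was higher by 1.82 in Per1KO and 1.75 in Per2KO, and Rps2 by 1.73 and 1.67, both at levels of at most 13.5 CPM. Rpl17 was higher by 1.09 and 1.20, and Rpl23 by 0.49 and 0.54.

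Among the falls, Rps6 (chr4:86854660-86857412, minus strand) had 169, 123 and 122 CPM in WT, 7.65, 3.66 and 4.22 CPM in Per1KO, and 6.84, 3.99 and 4.35 CPM in Per2KO, log2 fold changes of -4.79 (SE 0.15, adjusted p = 4.74e-06) and -4.80. Its pseudogene Rps6-ps4 on chromosome 2, which holds 85.3% of the shorter transcript's words, went the other way, with 5.28 to 7.69 CPM in WT and 34.1 to 61.9 CPM in the knockouts. Rps13 was at -4.99 and -4.98, Rpl9 at -4.78 and -5.03 and Rpl10 at -4.35 and -4.03. Rps3a1 was at -4.38 in Per1KO and Rps12 at -4.37 in Per2KO. Summed with its pseudogenes, Rps3a1 was at -0.46 in Per1KO (adjusted p = 0.0548) and no longer called. The sums for Rps13 were -2.82 and -2.85 and those for Rpl9 -2.85 and -3.00, while Rps12 was at -3.29 in Per2KO, all of them called. The Rpl9 sums leave out the protein-coding copy Rpl9-ps6, which had 14.3 to 25.0 CPM in WT and 32.2 to 48.3 CPM in the knockouts. The Rpl12 pseudogene Gm10275 on chromosome 10 had 38.2 to 55.3 CPM in WT and 117 to 251 CPM in the knockouts. The sum of Rpl12 and its pseudogenes was 375 CPM in WT and 375 CPM in Per1KO on day 0, although Rpl12 alone was at 319 and 131 CPM. For Rpsa, the pseudogene Rpsa-ps10 on chromosome 3 had 9.002 to 11.7 CPM in WT and 103 to 237 CPM in the knockouts.

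With each member's counts summed with its pseudogenes, the median difference from WT was -0.30 in Per1KO and -0.31 in Per2KO. In Per1KO 29 members were then lower and 11 higher, where 18.3% of all tested genes were called, and in Per2KO 26 were lower and 11 higher, where 19% were. Of the 42 and 41 members called lower from single genes, 28 and 26 were also lower in the sums, and all 8 called higher were also higher in both populations. Among the rises, the sums were larger than the single genes for Rps2, at 3.06 and 2.99, and for Rpl17, at 2.25 and 2.26. Rps6 moved from -4.79 to -1.48 in Per1KO and Rpl24 from 4.90 to 2.05. Rpl10 hardly moved, from -4.35 to -4.32, and Rpl29, with 0.91 and not called alone, came to 3.57. Protein-coding copies such as Rps27rt and Rpl9-ps6 were not part of these sums. Gm2000, a copy of Rpl35, had 2.68 to 3.83 CPM in WT and 86.5 to 121 CPM in the knockouts. The summed values of Rpl35, -0.48 and -0.59, leave it out. Gm10073, a copy of Rplp1, had 22.3 to 30.6 CPM in WT and 34.1 to 60.9 CPM in the knockouts. Rpl10-ps3, a copy of Rpl10, had at most 1.32 CPM in any library.

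Across the 83 members, the size of the difference from WT went with shared sequence. The correlation of the absolute log2 fold change with the shared percentage of the mRNA was 0.43 (Pearson) and 0.44 (Spearman) in Per1KO, and for day 5 against day 0 it was 0.15 and 0.24. These are descriptions across genes that share their libraries and often their sequence, and genes are not independent replicates. By the words of the principal mRNA, 58 tested members shared at least 50%, and their fold changes in Per1KO ran from -5.90 to 5.75. The 5 members under 10% ran from -1.02 to -0.07 in Per1KO and from -1.08 to -0.06 in Per2KO. Of these 5, Rps15a was called lower in both, with 143 to 194 CPM in WT and 64.0 to 107 CPM in the knockouts. Its sums with pseudogenes were -0.62 and -0.66, still called. The principal mRNA of Rps15a is long: its WT levels came to only 27.9 to 37.7 CPM per kilobase. The pseudogene Rps15a-ps7 holds 72.9% of the shorter transcript's words, so the low percentage does not mean that Rps15a lacks close copies. Rps19, with 47.3% of its mRNA shared, was called lower at -0.83 and -0.75. How the authors' counting treated reads that fit several genes, and the part of depth or lane in these differences, was not tested.

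**Figure D5:**
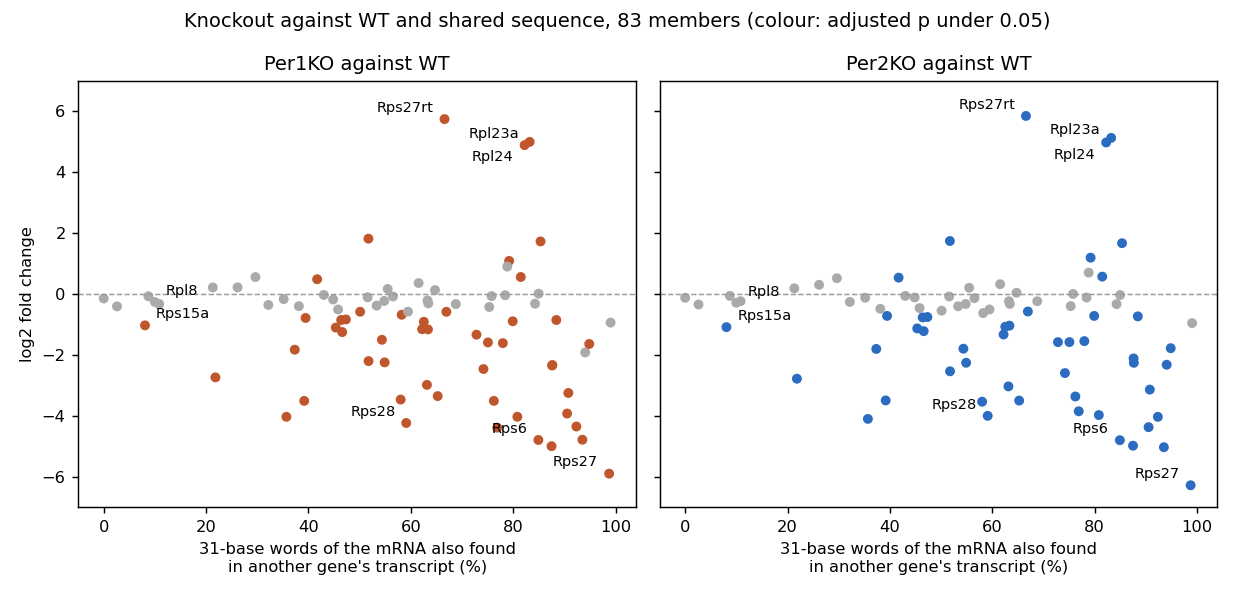
Log2 fold change against WT of the 83 tested members, Per1KO left and Per2KO right, by the percentage of 31-base words of their mRNA that occur in another gene's transcript; coloured points have an adjusted p under 0.05. Points at the left, under 10% shared, lie between -1.08 and -0.06, and the points beyond 50% spread from -6.28 (Rps27) to 5.85 (Rps27rt).

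The other members of the fixed list ranged from no called difference to large falls. Rplp0 was at -0.38 and -0.40 and Rplp2 at -0.39 and -0.48 and did not pass, whereas Rplp1 was lower by 1.59 and 1.57 on the log2 scale. Rpsa was at -2.24 and -2.25, Rpl3 at -2.34 and -2.11, Rpl36a at -2.33 and -2.25, and Rpl39 at -2.73 and -2.78, all of them called. Summed with its pseudogenes, Rpsa was at -0.23 and -0.20 and not called (adjusted p = 0.393 and 0.452). The sums for Rpl3 were -0.59 and -0.46 and those for Rpl36a -0.55 and -0.48, each called in Per1KO and not in Per2KO (adjusted p = 0.0799 and 0.0589). Rpl39 came to -0.96 and -0.94, still called. Rps18 was at -3.24 and -3.13 and Rps27a at -1.33 and -1.58, called also in the sums. Rps4x, Rpl7, Rpl7l1, Rpl22, Rpl22l1, Rpl36al, Rpl38 and Rps19bp1 lay between -0.33 and 0.37 and did not pass. Rpl13a lay nearest the median of both comparisons and was called in Per1KO at -0.68 (adjusted p = 0.0418) but not in Per2KO at -0.62 (adjusted p = 0.0545), and in neither when summed with its pseudogenes. Of the context lists, 4 biogenesis genes were higher in Per1KO and 3 in Per2KO, the largest being nucleophosmin, Npm1, at 0.69 and 0.70, and 0 were lower, where 9.26% and 9.31% of all tested genes were higher. Of the 16 other TOP mRNAs 4 were lower in each, where 10.1% and 10.6% of all tested genes were lower, with Eef1g at -0.95 and -1.04. Fau was lower at -0.99 and -0.93, Ddit4 at -1.72 and -1.52, and the translation regulator Larp4 was higher at 0.71 and 0.57. These context genes also share sequence: 68.0% of the words of the longest transcript for Eef1g, 52.1% for Fau, 45.5% for Npm1 and 25.2% for Larp4. For Ddit4 it was 0%. Their counts were not summed with pseudogenes, so the part of shared sequence in these differences was not tested.

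The 2 knockout populations, sequenced to like depth, were not distinguished by any of these genes. Per1KO against Per2KO called 0 members, where 0% of all tested genes were called. The DESeq2 Wald test also called 0, and 0 members had an unadjusted p under 0.05. The median difference was -0.01, and the estimates ran from -0.54 for Rps3a1 (SE 0.39) to 0.45 for Rps12 (SE 0.49). Rplp1 lay nearest the median, at -0.01 (SE 0.19). A p above the threshold does not show that the 2 populations were alike.

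Per kilobase of principal mRNA, Rpl8, a core protein near the peptidyl transferase centre, had the highest level of the members in both WT and the knockouts, with means of 1400 and 1195 CPM per kilobase over the 3 WT and 6 knockout libraries. Only 9.99% of its mRNA's words are shared. Rps15 had rank 3 in WT at 1007 and rank 2 in the knockouts at 820, and Rpl32 ranks 4 and 3 at 880 and 782. Rplp1 had rank 2 in WT at 1170 but rank 12 in the knockouts at 407. Rpl8 itself had 1266, 1317 and 990 CPM in WT, 1365, 911 and 797 CPM in Per1KO, and 1385, 872 and 772 CPM in Per2KO. The knockout values were slightly above WT on day 0, and those on days 3 and 5 were below every WT value.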

How the data were processed

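The files hold 1 table of whole-number read counts per Ensembl gene for 9 libraries, used as deposited by the authors. Per the submitters' processing notes, which give no role or order, CASAVA 1.8, HISAT2 2.1.0 and mm10 were used. The counting program, the annotation and the treatment of strand and of reads that fit several genes are not given in the sources used here. Symbols, positions and transcripts came from GENCODE M21 (GRCm38) by Ensembl identifier, which matched 47310 identifiers. The other 419 held at most 0.0174% of any library. Shared sequence is the percentage of a transcript's 31-base words that occur in the longest transcript of another gene. Words found only in shorter transcripts of that gene are not counted. A gene was tested if 3 or more libraries reached 1 CPM, which held for 13324 of 47729. Library sizes were scaled with TMM. Tests were edgeR 4.0.16 quasi-likelihood fits (limma 3.58.1, R 4.3.3, robust) with genotype and day as terms and 4 residual degrees of freedom, 3 for the interaction. P-values were Benjamini-Hochberg adjusted over all tested genes and called under 0.05. DESeq2 1.42.0 was an alternative. The fit was tested on simulated data for day 5 against day 0 with 13324 genes: 92 of 100 genes changed by log2 1 and 100 of 100 changed by log2 2 were called, as were 7 of 13124 unchanged genes. The simulation gave every gene the same dispersion and no difference between genotypes, and few genes changed. In the data 46.1% of tested genes were called, so the simulation does not show how the reported tests perform.

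The members and lists were chosen with earlier results of these data known. Named genes are a fixed list of members (paralog pairs, stalk proteins and commonly cited genes), the 5 largest called rises and falls of each comparison, the member nearest the median, and the largest called rise and fall of each context list. Members named beyond this, such as Rpl4, Rpl5, Rpl8, Rpl11, Rpl15, Rps3 and Rps15a, were chosen after their values were seen, as was the sum of Rps27 and Rps27rt. A few genes that the rule names are not reported here.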

Additional observations from a re-analysis of the deposited data

Results flagged for a closer look

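For 5 members the response to differentiation differed between the knockouts and WT by edgeR's interaction test, each with a deeper fall in the knockouts. The log2 difference of responses was -1.27 for Rpl27 (SE 0.23, adjusted p = 0.0307), -1.27 for Rpl9 (SE 0.23, adjusted p = 0.0312), -1.20 for Rpl14 (SE 0.18, adjusted p = 0.0183), -1.11 for Rps27a (SE 0.23, adjusted p = 0.0437) and -1.09 for Rpl22l1 (SE 0.20, adjusted p = 0.0296). The mRNAs of these 5 share between 54.3% and 93.5% of their 31-base words with other transcripts. With counts summed over a gene and its pseudogenes, 6 members were called, and the share of all tested genes called in that fit is not given here. The part of shared sequence, depth and lane in these differences was not tested.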

How the results depend on the processing

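No called value of a named gene changed sign under any alternative: 2984 values kept their side of the threshold, 111 passed it in addition and 233 lost it. For day 3 against day 0, 12 members became 31 with total counts as library sizes, 22 with the DESeq2 Wald test and 69 without the WT libraries. Of all tested genes, 35% were called in the main fit and 57.7% without the WT libraries. Total counts moved the median of all genes by -0.12 on day 3 and -0.17 on day 5. Day 5 against day 3 went from 0 members to 1 with DESeq2 and 4 without WT, where all tested genes called went from 1.79% to 10.5% without WT. The interaction went from 5 to 31 members with DESeq2. Shares of all tested genes are not given for the DESeq2, total-count and leave-one-out fits. Those counts, here and above, show only how the calls depend on the fit. Leaving out 1 library at a time gave 1 to 58 members for day 3, 16 to 71 for day 5 against day 0, 0 to 3 for day 5 against day 3, 37 to 63 for Per1KO and 38 to 64 for Per2KO against WT, and 0 to 43 for the interaction, which could not be estimated without WT day 0. The share of ribosomal protein genes among protein-coding counts was 2.14%, 2.102% and 1.51% in WT on days 0, 3 and 5, 1.79%, 1.17% and 0.964% in Per1KO, and 1.87%, 1.13% and 0.984% in Per2KO. With pseudogenes added, the shares of all counts were 2.26%, 2.20% and 1.59%, 2.25%, 1.51% and 1.25%, and 2.38%, 1.46% and 1.27% in the same order. Fits that left out a library had fewer samples, and otherwise the cause of a change in a count was not tested. No paired analysis was possible because the labels give no replicate numbers and each population and day has 1 library. The genotype term already sets the days of a population against each other. The WT depth limits members below about 1 CPM, such as Rpl29, Rpl23a and Rps27rt.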
